A study of Homo sapiens with 64 samples.

Results

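Expression of 9 genes of the PI3K, AKT and FOXO pathway (PIK3CD, PIK3CG, PIK3R1, INPP5D, AKT1, AKT2, DEPTOR, FOXO1 and FOXO3) was followed on 64 Illumina expression arrays of lymphoma cell lines. The genes were taken by symbol from the probe annotation and held 21 probes, of which 17 passed a filter on low signal and 4 did not. All 9 genes kept at least 1 probe and were among the 13393 genes tested. SUDHL2 and SUDHL6, which are used as models of diffuse large B-cell lymphoma, were sampled after 1, 2 or 12 h with OTX015, after the same hours with DMSO, the vehicle, or not treated. Each of these 14 groups had 3 arrays, numbered 1 to 3 after the experiment numbers in the labels. OTX015 is a small molecule that occupies the acetyl-lysine pocket of BET bromodomain proteins, chromatin readers that promote transcription; the sources used here do not give its dose. A panel of 22 untreated lymphoma lines, with 1 array each, gave basal levels and included separate arrays of both time-course lines, written SU-DHL-2 and SU-DHL-6. No group differed from another by a stated genotype, and each line is a single established line. The labels do not say whether the 3 arrays of a group came from separate cultures, and the p-values below then reflect no more than the spread among arrays.

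Class I PI3K enzymes phosphorylate the membrane lipid PIP2 to PIP3, which brings AKT kinases to the membrane, where they are activated. In B cells this follows signalling by the antigen receptor and its co-receptors, and lipid phosphatases such as the product of INPP5D remove the signal. Active AKT phosphorylates FOXO transcription factors, which holds them out of the nucleus, and feeds the MTOR kinase, which the DEPTOR protein binds and restrains.

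The reference sequence upstream of 3 members is shown because these members rose with OTX015 at 12 h in both lines. Each is the 250 bases before the most 5′ of the starts listed for the gene in the RefSeq promoter table on GRCh38.p14, written 5′ to 3′ on the gene's own strand. The windows lie at chr5:68215506-68215755 on the plus strand for PIK3R1, chr13:40666642-40666891 on the minus strand for FOXO1 and chr6:108559575-108559824 on the plus strand for FOXO3. The capitals in FOXO1 mark a CCAAT box read on the opposite strand.
PIK3R1: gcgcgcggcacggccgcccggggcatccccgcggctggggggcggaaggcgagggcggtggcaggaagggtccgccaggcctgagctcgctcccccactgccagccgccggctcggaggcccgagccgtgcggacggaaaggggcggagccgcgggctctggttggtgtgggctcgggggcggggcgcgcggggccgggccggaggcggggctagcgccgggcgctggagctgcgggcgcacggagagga
FOXO1: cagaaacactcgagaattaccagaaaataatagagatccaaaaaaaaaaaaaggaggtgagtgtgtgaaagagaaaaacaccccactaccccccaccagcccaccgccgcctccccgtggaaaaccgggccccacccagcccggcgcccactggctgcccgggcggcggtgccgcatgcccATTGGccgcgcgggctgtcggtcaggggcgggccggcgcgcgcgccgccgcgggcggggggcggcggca
FOXO3: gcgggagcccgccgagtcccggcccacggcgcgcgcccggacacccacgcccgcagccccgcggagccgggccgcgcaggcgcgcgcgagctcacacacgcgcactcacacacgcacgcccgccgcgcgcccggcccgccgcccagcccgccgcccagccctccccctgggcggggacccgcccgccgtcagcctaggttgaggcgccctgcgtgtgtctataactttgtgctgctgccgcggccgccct
The windows of PIK3R1 and FOXO3 were rich in G and C, at 81.6% and 80.4%, and held 37 and 42 CpG dinucleotides. The FOXO1 window had 67.2% G and C and 27 CpG dinucleotides, and the median over 27305 promoters of the same length was 57.6%. Among the windows of the other members, G and C made up between 41.2% for PIK3CG and 83.2% for AKT1. For PIK3CG and PIK3CD the most 5′ start listed there lies inside the annotated gene. Searched on both strands, the FOXO site GTAAACA was in 0 of the 8 member windows and in 3.01% of all promoters, and the E-box CACGTG was in 0 of 8 and in 6.46%. The CCAAT box was in 1 of 8, that of FOXO1, and in 33% of all promoters. A match is a description of these letters only. RefSeq gives 4 transcript starts for PIK3R1, 4 for FOXO3 and 1 for FOXO1, and which of them the array probes read was not tested.

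Median signal ran from 88.27 to 118 intensity units over all arrays, and between 34% and 47.4% of probes lay above background. Replicates of a time-course group correlated at 0.982 to 0.995 across genes. The 7 arrays of SUDHL6 experiment 3 stood apart, with scores of -15.1 to -10.4 on the first component of the residuals, which held 14.9% of their variance, against -6.61 to 13.3 for the other time-course arrays. The array labelled Karpas-422 went against its label in the signal table. Its deposited processed values had a rank correlation of 0.775 with its own signals and 0.79 with those of another array, whereas all 63 other arrays matched their own at 1. Summed over the B-cell marker genes its signal was 368, the lowest of the panel, where the next lowest line had 3069, and its T-cell and NK-cell marker sum of 4909 was the highest. Panel results are therefore given with and without it. In both time-course lines 4 of 6 B-cell markers were above background on every array and PAX5, a transcription factor that defines B cells, was above background on none. PAX5 was not above background on any of the 22 panel arrays either, and whether its probe can read the gene was not tested. In bulk RNA such as this, fewer cells of a type and less RNA per cell cannot be told apart.

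After 12 h of OTX015, 5 of the 9 genes were higher and 0 lower than with DMSO in SUDHL2, and 3 were higher and 2 lower in SUDHL6. PIK3R1, FOXO1 and FOXO3 rose in both lines, by between 1.38-fold and 1.79-fold. PIK3CG and INPP5D rose in SUDHL2, and INPP5D and PIK3CD fell in SUDHL6. Of all genes tested, 34.1% passed in SUDHL2 (17.7% higher and 16.5% lower) and 26.9% in SUDHL6 (13.9% higher and 13% lower; limma, adjusted p under 0.05), so a called gene was common at this hour. The median log2 fold change of the members was 0.40 in SUDHL2, beside 0.01 over all genes, and 0.09 in SUDHL6, beside 0.02. In the values below, a level is a log2 normalized intensity and a change is a log2 fold change of OTX015 over DMSO ± its standard error.

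**Figure D1:**
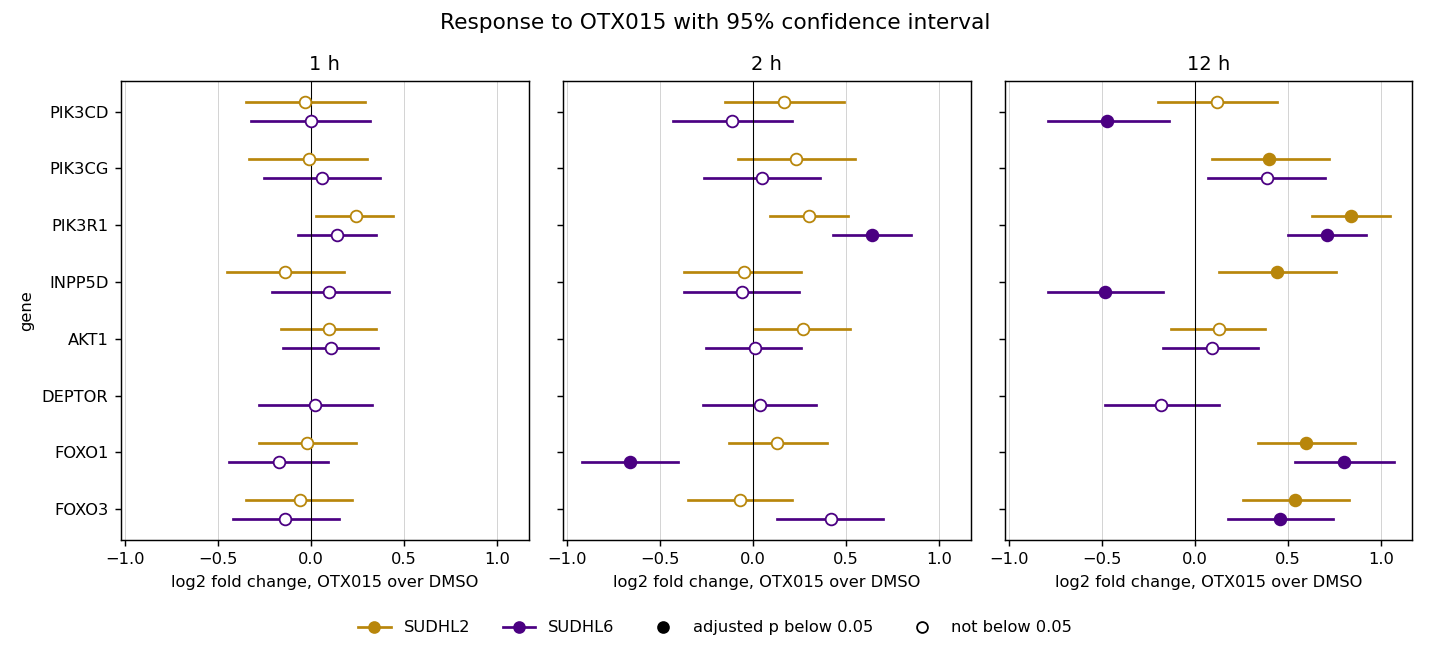
Log2 fold change of OTX015 over DMSO (horizontal axis, bars are 95% confidence intervals) for 8 members at 1, 2 and 12 h in SUDHL2 and SUDHL6, 3 arrays per group; filled points had an adjusted p under 0.05. AKT2 is omitted and DEPTOR is drawn for SUDHL6 alone because their probes were at background elsewhere. PIK3R1, FOXO1 and FOXO3 lie to the right of 0 in both lines at 12 h, FOXO1 in SUDHL6 lies to the left at 2 h (-0.66), and INPP5D points in opposite directions in the lines at 12 h.

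PIK3R1 encodes p85α, the regulatory subunit that stabilizes the catalytic subunits and docks them at phosphotyrosines. At 12 h in SUDHL2 its level was 7.93, 7.97 and 8.00 on the OTX015 arrays, against 7.15, 7.13 and 7.10 with DMSO. Every OTX015 array lay above every DMSO array. The change was 0.84 ± 0.10, or 1.79-fold (adjusted p = 1.3e-08). In SUDHL6 the 12 h levels were 8.23, 8.32 and 8.33 with OTX015, against 7.49, 7.65 and 7.60 with DMSO. These groups did not overlap either, and the change was 0.71 ± 0.10, or 1.64-fold (adjusted p = 6.6e-07). The rise was already present at 2 h in SUDHL6, with 8.34, 8.47 and 8.63 in OTX015 cells, against 7.81, 7.89 and 7.82 in DMSO cells. That change was 0.64 ± 0.10 (adjusted p = 2.6e-05). At 2 h in SUDHL2 the levels were 7.90, 7.82 and 7.87 with OTX015, against 7.56, 7.65 and 7.49 with DMSO. They did not overlap, but the change of 0.30 did not pass over all genes (unadjusted p = 0.006, adjusted p = 0.13). The 12 h response exceeded the 2 h response by 0.54 in SUDHL2 (adjusted p = 0.0053), and by 0.07 in SUDHL6 (adjusted p = 0.82). Between the lines the responses differed by -0.34 at 2 h (adjusted p = 0.5) and by 0.13 at 12 h, with a 95% confidence interval of -0.17 to 0.42 (adjusted p = 0.65). These values are from the brightest of 3 PIK3R1 probes. With the mean of the 3 probes the SUDHL2 change at 12 h was 0.22 (adjusted p = 0.13) and the SUDHL2 12 h minus 2 h difference was 0.08 (adjusted p = 0.8).

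FOXO1, a transcription factor with a central part in B-cell development and the germinal centre, moved in opposite directions at 2 and 12 h in SUDHL6. At 1 h its levels there were 8.22, 8.36 and 8.25 with OTX015, against 8.36, 8.55 and 8.45 with DMSO, a change of -0.17 (adjusted p = 0.94). At 2 h they were 7.89, 8.14 and 8.13 with OTX015, against 8.49, 8.90 and 8.75 with DMSO. At 12 h they were 9.17, 9.20 and 9.16 with OTX015, against 8.20, 8.51 and 8.42 with DMSO. The OTX015 arrays thus lay below every DMSO array at 2 h and above every one at 12 h. The changes were -0.66 ± 0.13 at 2 h (adjusted p = 0.00055), a level 0.633 times that with DMSO, and 0.80 ± 0.13, or 1.74-fold, at 12 h (adjusted p = 5.4e-06). The 12 h response exceeded the 2 h response by 1.46 (adjusted p = 1.9e-07). In SUDHL2 the 12 h levels were 7.97, 7.90 and 8.04 with OTX015, against 7.42, 7.64 and 7.04 with DMSO. These groups did not overlap, and the change was 0.60 ± 0.13, or 1.52-fold (adjusted p = 0.00026). At 2 h in SUDHL2 the levels of 7.15, 7.11 and 6.88 with OTX015 overlapped those of 6.79, 6.90 and 7.04 with DMSO. The 2 h responses of the lines, 0.13 in SUDHL2 and -0.66 in SUDHL6, differed by 0.79 (adjusted p = 0.021). At 12 h they differed by -0.20, with an interval of -0.57 to 0.17 (adjusted p = 0.55). The 2 h difference between lines was lost when any one of 6 arrays was left out (0.70 to 0.79, adjusted p = 0.053 to 0.09), which were OTX015 replicates 1 and 2 and DMSO replicates 1 and 2 of SUDHL2, and OTX015 replicate 1 and DMSO replicate 2 of SUDHL6. With 75th percentile scaling it was 0.64 (adjusted p = 0.16), and without experiment 3 of SUDHL6 it was 0.81 (adjusted p = 0.059). The SUDHL2 responses at 12 and 2 h differed by 0.47 (adjusted p = 0.065), which passed without DMSO 2 h replicate 1 (0.53, adjusted p = 0.045) or DMSO 12 h replicate 2 (0.60, adjusted p = 0.019). It also passed with the experiment number (0.47, adjusted p = 0.038) or the slide (0.51, adjusted p = 0.035) as a block.

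FOXO3, a related factor that is likewise held in the cytoplasm by AKT, had 12 h levels in SUDHL2 of 8.08, 8.00 and 8.29 with OTX015, against 7.54, 7.63 and 7.57 with DMSO. In SUDHL6 they were 8.66, 8.82 and 8.27 with OTX015, against 8.07, 8.18 and 8.13 with DMSO. The groups did not overlap in either line, although OTX015 replicate 3 of SUDHL6 was close to its DMSO arrays. The change was 0.54 ± 0.14, or 1.46-fold, in SUDHL2 (adjusted p = 0.002) and 0.46 ± 0.14, or 1.38-fold, in SUDHL6 (adjusted p = 0.011). The SUDHL6 call was lost without OTX015 replicate 2 (0.34, adjusted p = 0.11). At 2 h in SUDHL6 the levels were 9.20, 9.16 and 8.89 with OTX015, against 8.39, 9.0 and 8.60 with DMSO. DMSO replicate 2 lay inside the OTX015 range, and the change of 0.42 did not pass (adjusted p = 0.07). It passed with the experiment number as a block (0.42, adjusted p = 0.035), with 75th percentile scaling (0.57, adjusted p = 0.022), in the deposited processed values (0.34, adjusted p = 0.049), without DMSO replicate 2 (0.58, adjusted p = 0.011) and without OTX015 replicate 3 (0.51, adjusted p = 0.038). At 2 h in SUDHL2 levels of 8.18, 8.33 and 7.94 with OTX015 overlapped 8.16, 8.17 and 8.33 with DMSO. The 12 h response in SUDHL2 exceeded that at 2 h by 0.61 (adjusted p = 0.021), a call that was lost without replicate 3 of OTX015 at 2 h (0.51, adjusted p = 0.085), of OTX015 at 12 h (0.53, adjusted p = 0.069) or of DMSO at 2 h (0.56, adjusted p = 0.06). FOXO3 has a near-identical copy, FOXO3B, so its probes may read both genes and its values are uncertain in that sense. With the mean of its probes the SUDHL2 change at 12 h was 0.23 (adjusted p = 0.16).

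**Figure D2:**
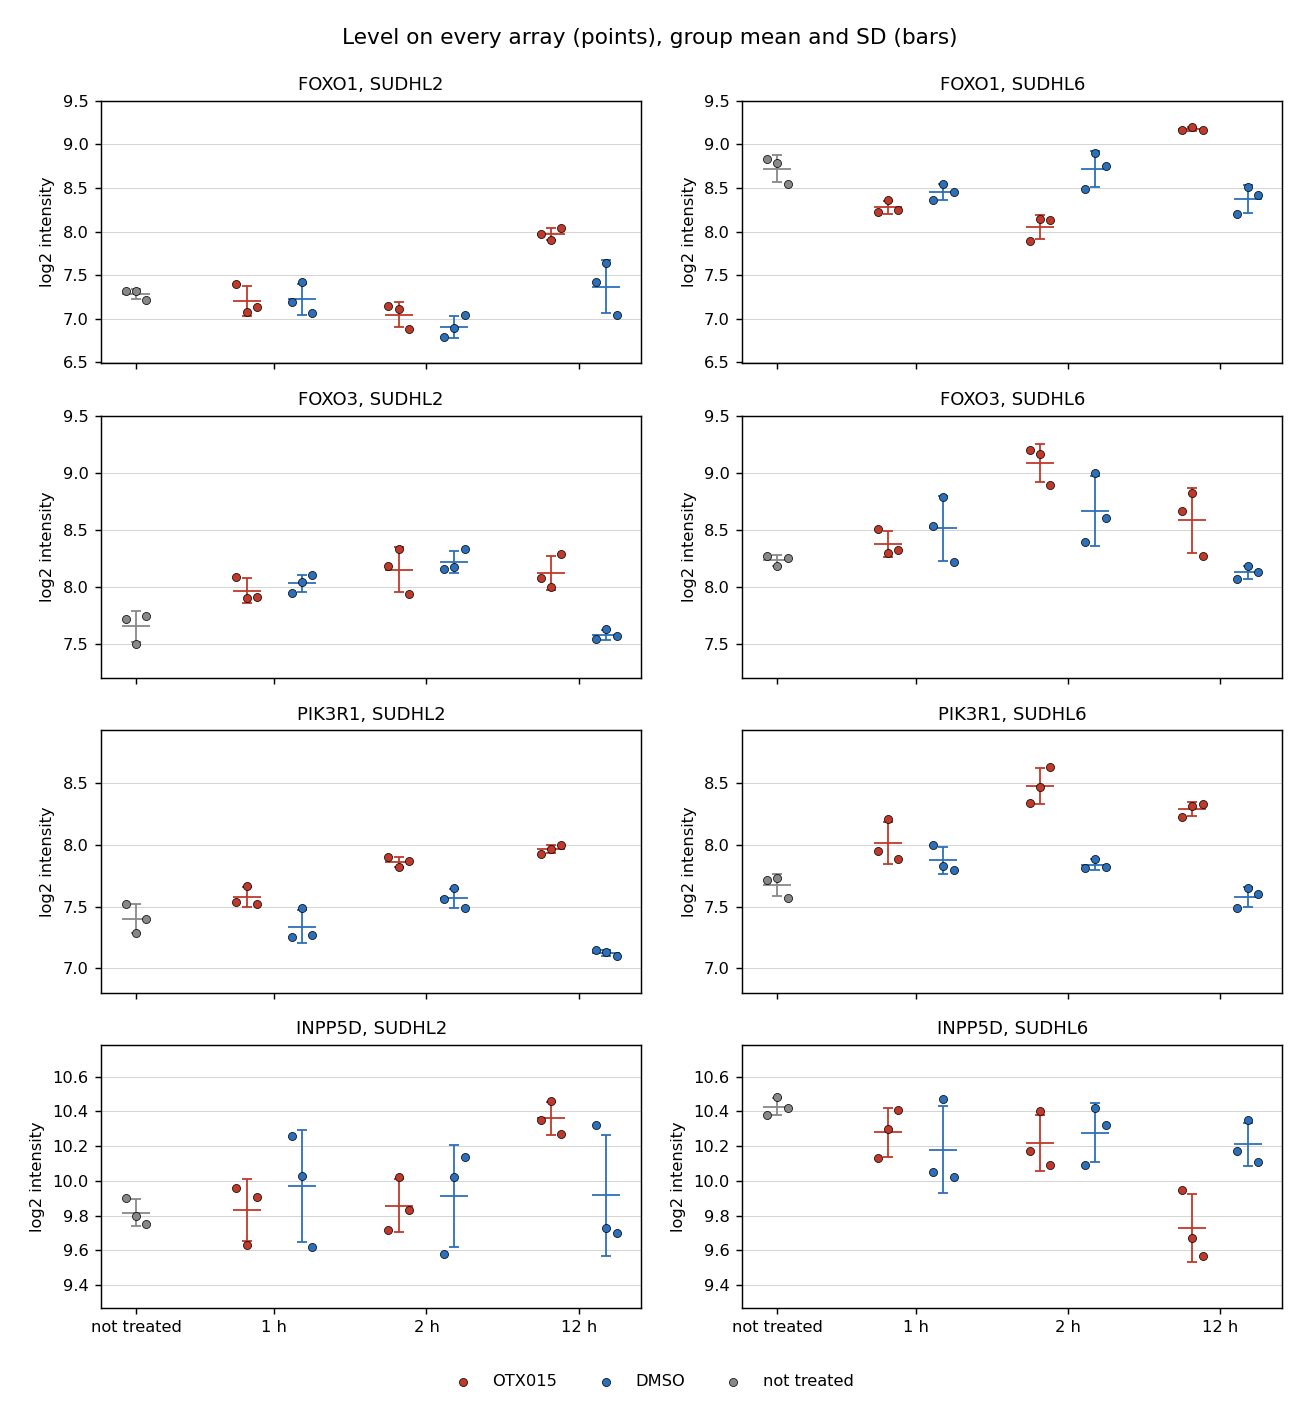
Log2 normalized intensity of FOXO1, FOXO3, PIK3R1 and INPP5D on each time-course array (points), with the mean and SD of 3 arrays, by hour and treatment in SUDHL2 (left) and SUDHL6 (right). At 12 h the OTX015 arrays of FOXO1 and PIK3R1 lie above every DMSO array in both lines, and those of INPP5D lie below every DMSO array in SUDHL6.

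INPP5D encodes SHIP1, a phosphatase of blood cells that removes the 5′ phosphate from PIP3. At 12 h its levels in SUDHL2 were 10.35, 10.46 and 10.27 with OTX015, against 10.32, 9.73 and 9.70 with DMSO. DMSO replicate 1 fell within the OTX015 range, and the change was 0.44 ± 0.16, or 1.36-fold (adjusted p = 0.023). In SUDHL6 they were 9.95, 9.67 and 9.57 with OTX015, against 10.17, 10.35 and 10.11 with DMSO. There the groups did not overlap, and the change was -0.48 ± 0.16, a level 0.717 times that with DMSO (adjusted p = 0.017). The responses of the lines differed by 0.92 (adjusted p = 0.003), and this difference passed without each of the 12 arrays in turn. The change within each line was less stable. In SUDHL2 it did not pass without OTX015 replicate 1 (0.45, adjusted p = 0.052) or 2 (0.39, adjusted p = 0.091), or DMSO replicate 2 (0.35, adjusted p = 0.13) or 3 (0.33, adjusted p = 0.15). In SUDHL6 it did not pass without OTX015 replicate 2 (-0.45, adjusted p = 0.06) or 3 (-0.40, adjusted p = 0.088), or DMSO replicate 2 (-0.41, adjusted p = 0.082). With the mean of its 2 probes the change was 0.21 in SUDHL2 (adjusted p = 0.2) and -0.30 in SUDHL6 (adjusted p = 0.071), and the SUDHL2 change was 0.29 with 75th percentile scaling (adjusted p = 0.17). Without experiment 3 the SUDHL6 change was -0.45 (adjusted p = 0.097). The summed level of the 6 B-cell markers on the array was 6370 to 6424 intensity units with OTX015, against 4665 to 5176 with DMSO, in SUDHL2 at 12 h, and 10504 to 11468 with OTX015, against 13828 to 15180 with DMSO, in SUDHL6. Single B-cell markers did not all follow their sum. In SUDHL2, of 5 tested, CD79B rose (1.08), MS4A1 fell (-1.76) and 3 did not pass. In SUDHL6 CD22 (-1.02), MS4A1 (-0.89) and CD79A (-0.63) fell and 2 did not pass. Another MS4A1 probe pointed the other way in both lines. The myeloid marker sum was 1010 to 1150 with OTX015, against 595 to 809 with DMSO, in SUDHL2, and 1086 to 1399 with OTX015, against 1056 to 1119 with DMSO, in SUDHL6. Their part in the result was not tested.

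PIK3CD encodes p110δ, the catalytic subunit that dominates in B cells. At 12 h in SUDHL6 its levels were 6.18, 6.35 and 6.51 with OTX015, against 6.95, 6.76 and 6.74 with DMSO, with no overlap. The change was -0.47 ± 0.16, a level 0.724 times that with DMSO (adjusted p = 0.024). It did not pass without OTX015 replicate 1 (-0.38, adjusted p = 0.12) or 2 (-0.46, adjusted p = 0.058), or DMSO replicate 1 (-0.40, adjusted p = 0.11). In SUDHL2 levels of 8.01, 8.26 and 8.08 with OTX015 overlapped 8.17, 8.04 and 7.78 with DMSO, and the change was 0.12 (adjusted p = 0.63). The difference between the lines was 0.58 and did not pass (adjusted p = 0.085). Without background correction the SUDHL6 change was -0.27 (adjusted p = 0.076), and in the deposited processed values it was -0.25 (adjusted p = 0.084).

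PIK3CG encodes p110γ, the catalytic subunit coupled to G-protein receptors. Its 12 h levels in SUDHL2 were 9.59, 9.50 and 9.70 with OTX015, against 9.04, 9.24 and 9.29 with DMSO. In SUDHL6 they were 9.66, 9.72 and 9.51 with OTX015, against 9.18, 9.39 and 9.17 with DMSO. The OTX015 arrays lay above the DMSO arrays in both lines. The change was 0.40 ± 0.16, or 1.32-fold, in SUDHL2 (adjusted p = 0.039), and 0.39 in SUDHL6, which did not pass (adjusted p = 0.061). With the experiment number as a block the SUDHL6 change passed (0.39, adjusted p = 0.0065), as it did without experiment 3 of that line (0.41, adjusted p = 0.029). The responses of the lines differed by 0.02 (adjusted p = 0.98). In SUDHL2 the call was lost without OTX015 replicate 1 (0.41, adjusted p = 0.079) or 3 (0.35, adjusted p = 0.13), or DMSO replicate 1 (0.33, adjusted p = 0.15) or 2 (0.43, adjusted p = 0.063), and scaling by the 75th percentile gave 0.24 (adjusted p = 0.26).

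AKT1, one of the kinases that PIP3 brings to the membrane, did not pass in any comparison with its brightest probe. Its group means lay between 9.43 and 9.99 on all time-course arrays. At 12 h its levels in SUDHL2 were 9.70, 9.68 and 9.73 with OTX015, against 9.51, 9.55 and 9.67 with DMSO, a change of 0.13 with an interval of -0.13 to 0.38 (adjusted p = 0.49). In SUDHL6 they were 9.39, 9.48 and 9.68 with OTX015, against 9.74, 9.12 and 9.43 with DMSO, and overlapped (change 0.09, interval -0.17 to 0.34, adjusted p = 0.67). AKT2, a kinase known for its part in insulin signalling, was above background on 3 of 42 arrays, with group means of 4.74 to 5.22, and is given no fold change. DEPTOR was above background in SUDHL6 and on no SUDHL2 array. In SUDHL6 at 12 h its levels were 10.41, 10.36 and 10.42 with OTX015, against 10.62, 10.49 and 10.61 with DMSO. The OTX015 arrays lay below the DMSO arrays by a small margin, and the change of -0.18 did not pass (interval -0.48 to 0.13, adjusted p = 0.43).

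The earlier hours held few calls. At 1 h no member passed in either line, where 0.187% of all genes passed in SUDHL2 and 0.821% in SUDHL6. In SUDHL2 at 1 h PIK3R1 had an unadjusted p of 0.026, with levels of 7.54, 7.67 and 7.52 with OTX015, against 7.25, 7.49 and 7.27 with DMSO, and in SUDHL6 no member reached an unadjusted p under 0.05. At 2 h in SUDHL2 again no member passed, beside 3.29% of all genes, and 2 members had an unadjusted p under 0.05, namely PIK3R1 (0.30) and AKT1 (0.27, adjusted p = 0.39). At 2 h in SUDHL6, where 6% of all genes passed (2.76% higher and 3.25% lower), PIK3R1 passed as higher and FOXO1 as lower. The median change of the members at 2 h was 0.13 in SUDHL2, beside 0.01 over all genes, and 0.04 in SUDHL6, beside 0.03. Tests between the lines called none of the 9 members at 1 h, FOXO1 at 2 h and INPP5D at 12 h, where 0.0373%, 0.672% and 12.3% of all genes were called. Tests of the 12 h against the 2 h response called PIK3R1 and FOXO3 in SUDHL2 and FOXO1 in SUDHL6, where 20.6% and 12.9% of all genes were called.

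The shared first part of the array codes was read as the slide, and the arrays lay on several slides. Within each slide that held both treatments the 12 h calls kept their direction. This was fixed beforehand for every call except INPP5D in SUDHL2, because the arrays of the others did not overlap. In SUDHL2 the values rest on 1 OTX015 and 1 DMSO array on slide 1, and 2 of each on slide 3. In SUDHL6 they rest on 2 OTX015 and 1 DMSO array on slide 2, and 1 and 2 on slide 6. In SUDHL2 PIK3R1 changed by 0.90 on slide 1 and 0.81 on slide 3, FOXO1 by 0.99 and 0.41, FOXO3 by 0.71 and 0.46, INPP5D by 0.56 and 0.38, and PIK3CG by 0.40 and 0.40. In SUDHL6 PIK3R1 changed by 0.78 on slide 2 and 0.71 on slide 6, FOXO1 by 0.99 and 0.70, FOXO3 by 0.67 and 0.12, INPP5D by -0.36 and -0.66, and PIK3CD by -0.68 and -0.23. FOXO3 in SUDHL6 changed less on slide 6 than on slide 2 at 12 h, as it did at 2 h (0.79 on slide 2 and 0.09 on slide 6). The other 2 h changes in SUDHL6 were -0.47 and -0.70 for FOXO1 and 0.60 and 0.78 for PIK3R1.

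Different probes of a gene did not always move alike. FOXO1, PIK3CD and AKT2 had 1 probe each, so no other probe could be set beside it. PIK3R1 had a second probe that passed in SUDHL6 at 2 h (0.64, adjusted p = 0.039, here over all probes) and at 12 h (0.56, adjusted p = 0.028), but not in SUDHL2 at 12 h (0.28, adjusted p = 0.32). A further, dimmer probe was above background on 16 of 42 arrays, and in SUDHL2 at 12 h on 0 OTX015 and 3 DMSO arrays. Its value of -0.45 there is limited by the background level and is not a measured size of change. INPP5D had a second probe, above background on 11 of 42 arrays, that changed by -0.02 in SUDHL2 and -0.11 in SUDHL6. For FOXO3 the second probe changed by -0.08 in SUDHL2 and 0.27 in SUDHL6 at 12 h and did not pass in either. PIK3CG had a second probe that changed by 0.45 in SUDHL2 (adjusted p = 0.04) and 0.06 in SUDHL6. One further AKT1 probe passed in SUDHL2 at 12 h (0.34, adjusted p = 0.02), unlike the brightest one. The brightest probe carries each gene's result above, and which transcript each probe reads was not tested.

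**Figure D3:**
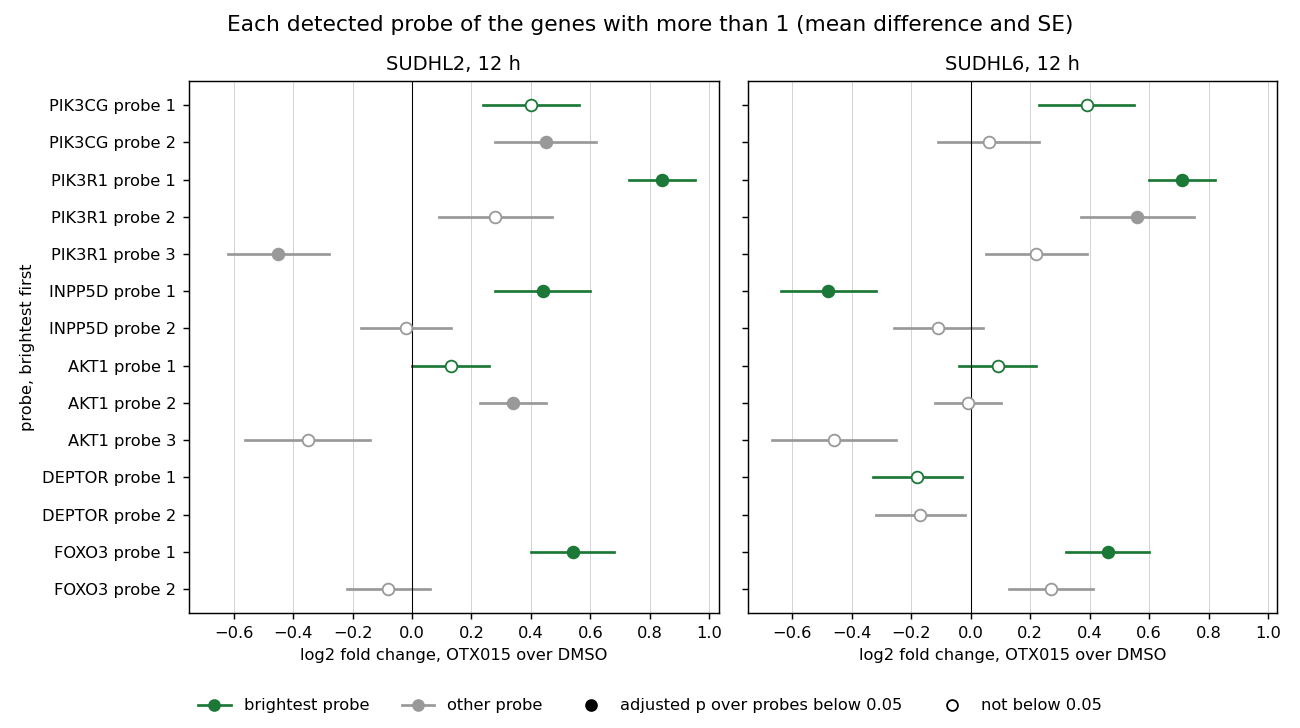
Log2 fold change of OTX015 over DMSO at 12 h (± standard error) of each probe that passed the filter, for the members with more than 1, in SUDHL2 and SUDHL6. Green marks the brightest probe of a gene, and filled points had a p adjusted over all probes under 0.05. The dimmest PIK3R1 probe lies at -0.45 in SUDHL2, where its OTX015 arrays were not above background, and the brightest at 0.84.

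DMSO against not treated compares arrays without OTX015. The untreated arrays carry no hour, so the vehicle, the hours in culture and the handling cannot be told apart. In SUDHL2 no member passed at 1 h, where 6.12% of all genes did. At 2 h, beside 13.9% of all genes, FOXO3 rose by 0.56 (adjusted p = 0.004), with 8.16, 8.17 and 8.33 in DMSO cells, against 7.72, 7.50 and 7.74 in untreated cells. FOXO1 fell by 0.37 (adjusted p = 0.049), with 6.79, 6.90 and 7.04 in DMSO cells, against 7.32, 7.32 and 7.22 in untreated cells. At 12 h, beside 22.9% of all genes, PIK3R1 fell by 0.28 (adjusted p = 0.046), with 7.15, 7.13 and 7.10 in DMSO cells, against 7.52, 7.29 and 7.40 in untreated cells. The DMSO and untreated arrays did not overlap in any of these, and within the slide that held both groups the changes were 0.54, -0.42 and -0.21. In SUDHL6 no member passed at 1 h or 12 h, where 1.78% and 16.8% of all genes did. At 2 h, beside 11.7%, FOXO3 rose by 0.43 (adjusted p = 0.035), with 8.39, 9.0 and 8.60 in DMSO cells, against 8.27, 8.18 and 8.25 in untreated cells, and by 0.17 and 0.55 within slides 2 and 6. FOXO3 in SUDHL2 passed without each array in turn, but not with the mean of its probes (adjusted p = 0.055). The other calls hung on single arrays. FOXO1 and PIK3R1 in SUDHL2 also passed in only 4 of 11 other processing settings each. FOXO1 in SUDHL2 still passed without DMSO replicate 3, but not without any one of the other 5 arrays (-0.41 to -0.31). PIK3R1 in SUDHL2 still passed without untreated replicate 2, but not without any one of the other 5 (-0.29 to -0.22). FOXO3 in SUDHL6 did not pass without any one untreated replicate (0.41 to 0.45) or without DMSO replicate 2 (0.27, adjusted p = 0.3). At 12 h in SUDHL6 the changes of PIK3CD (-0.43, adjusted p = 0.054), FOXO1 (-0.35, adjusted p = 0.058) and PIK3CG (-0.35, adjusted p = 0.12) did not pass. With the experiment number as a block they did, at adjusted p = 0.044, 0.032 and 0.019, as did PIK3CG at 2 h (-0.33, adjusted p = 0.037). Leaving out untreated replicate 3 of SUDHL6 also brought PIK3CG past the threshold at 2 h (-0.55, adjusted p = 0.018) and 12 h (-0.57, adjusted p = 0.0095), PIK3CD at 12 h (-0.51, adjusted p = 0.043) and FOXO1 at 12 h (-0.44, adjusted p = 0.032). PIK3CD also passed at 12 h without untreated replicate 1 (-0.53, adjusted p = 0.042), AKT1 without DMSO replicate 1 (-0.38, adjusted p = 0.045), and FOXO1 without DMSO replicate 2 (-0.42, adjusted p = 0.05 after rounding). These comparisons share the DMSO arrays with those of OTX015.

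Untreated SUDHL2 and SUDHL6 differed in 6 of the 9 members, 1 higher and 5 lower in SUDHL2, where 52.4% of all genes differed (27% higher and 25.4% lower). PIK3CD was higher in SUDHL2, with 8.20, 8.19 and 7.86, against 7.05, 7.59 and 7.09 in SUDHL6, a difference of 0.84 ± 0.16 (adjusted p = 1.8e-05). FOXO1 was lower in SUDHL2, with 7.32, 7.32 and 7.22, against 8.83, 8.79 and 8.55 in SUDHL6, a difference of -1.44 ± 0.13 (adjusted p = 1.1e-12). Neither gene's arrays overlapped between the lines. INPP5D was 9.90, 9.80 and 9.75 in SUDHL2, against 10.38, 10.48 and 10.42 in SUDHL6 (-0.61 ± 0.16, adjusted p = 0.00086). FOXO3 was 7.72, 7.50 and 7.74 in SUDHL2, against 8.27, 8.18 and 8.25 in SUDHL6 (-0.58 ± 0.14, adjusted p = 0.00055). Both were below the other line on every array. DEPTOR, which was not above background in SUDHL2 (4.62, 4.64 and 4.96), stood at 10.75, 10.54 and 10.59 in SUDHL6 and was at least 39.4-fold lower in SUDHL2. It passed the filter through its SUDHL6 arrays alone, so its place among the 6 is a description and not a test. PIK3R1 was lower by a small margin (-0.27 ± 0.10, adjusted p = 0.022) that did not pass without untreated SUDHL2 replicate 2 (-0.22, adjusted p = 0.12), SUDHL6 replicate 1 (-0.25, adjusted p = 0.071) or SUDHL6 replicate 2 (-0.25, adjusted p = 0.078). PIK3CG (-0.35, adjusted p = 0.057) and AKT1 (0.11, adjusted p = 0.51) did not pass, and PIK3CG did without untreated SUDHL6 replicate 3 (-0.57, adjusted p = 0.0026) or all of experiment 3 of SUDHL6 (-0.57, adjusted p = 0.00028). The second PIK3CG probe passed (-0.75, adjusted p = 0.00021 over all probes), as did the mean of its 2 probes (-0.55, adjusted p = 0.00084). With the slide as a block the PIK3CG difference was -0.18 (adjusted p = 0.37). Experiment blocks lie within a line, so a fit with them cannot give the difference between lines and is left out here. Scaling by the 75th percentile moved the median difference of all genes to -0.10, beside 0.01, and PIK3R1 then no longer passed (-0.18, adjusted p = 0.2). Nor did PIK3R1 pass with the slide as a block (-0.25, adjusted p = 0.11) or with the mean of its probes (-0.17, adjusted p = 0.21). On the slide that held 1 untreated array of each line the differences were 1.11 for PIK3CD, -1.23 for FOXO1, -0.52 for INPP5D, -0.53 for FOXO3 and -0.06 for PIK3R1.

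Over the 22 panel lines the members differed in how widely their levels spread, with DEPTOR the widest among lines above background. DEPTOR was above background in 12 lines, from 5.33 in OCI-Ly1 to 10.54 in SU-DHL-6. OCI-Ly7 (10.03) and SU-DHL-4 (9.72) came next after SU-DHL-6. In the other 10 lines, SU-DHL-2 among them, it was not above background (4.48 to 5.14), so these lines have no order and the full range is known only as a lower bound. FOXO1 ran from 5.22 through a median of 8.68 to 9.85. The lowest value, not above background, was that of the array labelled Karpas-422, and without it the range narrowed to 3.73, with SU-DHL-7 (6.12) and TMD8 (7.32) lowest and SU-DHL-4 (9.85) and SU-DHL-5 (9.80) highest. FOXO3 ran from 7.03 in OCI-Ly10 through a median of 8.60 to 9.89 in OCI-Ly1.

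PIK3CD and PIK3CG, the catalytic subunits, were ordered differently over the lines. PIK3CD had a median of 7.75 and was highest in TMD8 (9.0) and OCI-Ly10 (8.97), and lowest, apart from the Karpas-422 array, which was not above background (5.02), in SU-DHL-7 (6.53). PIK3CG had a median of 9.13 and was highest in SU-DHL-4 (10.45) and SU-DHL-7 (10.35), and lowest in TMD8 (7.05), OCI-Ly3 (7.51) and OCI-Ly10 (7.54). The lines with the most PIK3CD signal were thus among those with the least PIK3CG signal, each probe read on its own scale. INPP5D ran from 8.02 in U-2932 through 9.13 to 11.05 in OCI-Ly19, with SU-DHL-6 next at 10.17. PIK3R1 had the narrowest range of the members above background in every line, from 6.55 in OCI-Ly10 through 7.77 to 8.72 in OCI-Ly3. AKT1 ran from 7.87 in HBL-1 through 9.49 to 10.60 in SU-DHL-7, and AKT2 was above background in 9 of 22 lines (4.79 to 5.64).

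Most neighbours in these orders could not be told apart. Neighbouring lines were called separated where they differed by more than 2 times the root of 2 times the gene's SD between time-course replicates, since the panel has no replicates. Arrays of the same line could differ by more than this limit. PIK3R1 was 6.85 on the SU-DHL-2 panel array and 7.40 in the untreated SUDHL2 mean, with a limit of 0.27. For SU-DHL-6 these were 7.56 and 7.68, and the other members lay within their limits in both lines. Of 21 neighbouring pairs, 4 were separated for DEPTOR, 3 for FOXO1, 3 for INPP5D, 1 each for PIK3CD, PIK3CG, PIK3R1, AKT1 and FOXO3, and 0 for AKT2. Without the Karpas-422 array the separated pairs, of 20, became 2 for FOXO1, 0 for PIK3CD and 2 for PIK3R1. Over the 36 pairs of members, the correlation of levels across lines had a median of 0.12 and ran from -0.42 for PIK3CD with PIK3CG to 0.56 for PIK3CD with FOXO1. Without that array it ran from -0.63 for PIK3CD with DEPTOR to 0.52, with a median of 0.03. PIK3CD with PIK3CG was then -0.60 and PIK3CD with FOXO1 0.27. These are descriptions over 22 or 21 lines, each a single array, that share 1 normalization.

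**Figure D4:**
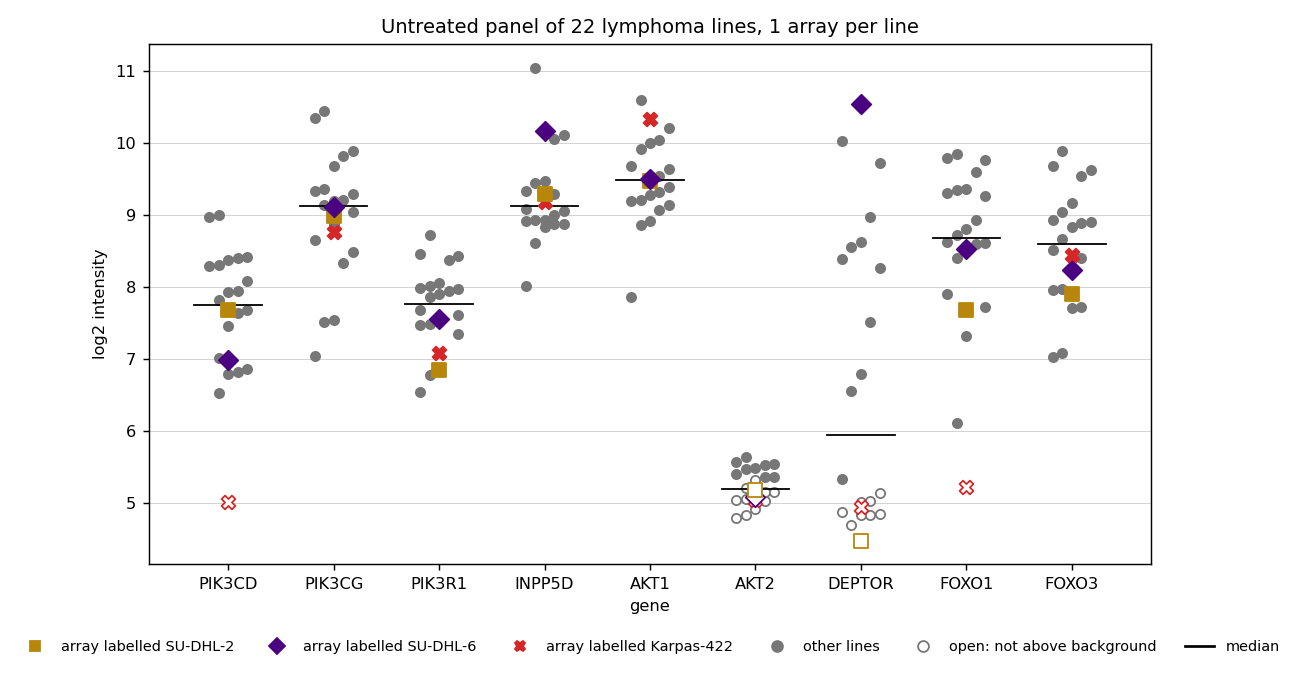
Log2 normalized intensity of each member (horizontal positions) in the 22 untreated panel lines, 1 array each; bars are medians, open points were not above background, and the square, diamond and X mark SU-DHL-2, SU-DHL-6 and the array labelled Karpas-422. DEPTOR reaches 10.54 and is open in 10 lines, and the X is the lowest point of FOXO1 and PIK3CD.

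The genes whose levels moved most like each member were named by Pearson correlation over the 14 time-course group means, centred within each line. For PIK3R1 they were TUBB4B (0.96), TUBB3 (0.94) and WDR47 (0.92). For FOXO1 they were ERICH5 (0.91), SHBG (0.91) and PTPN4 (0.88), and for FOXO3 HMGB3 (0.94), CTNNBIP1 (0.93) and ZKSCAN2 (0.93). INPP5D was followed most closely by FCRL5 (0.92), PTPRCAP (0.91) and SPI1 (0.90). PIK3CD had PSORS1C3 (0.95), PCDH9 (0.95) and ZNF630 (0.94), PIK3CG had SIMC1P1 (0.87), SEMA4B (0.87) and ANXA2R-OT1 (0.85), and AKT1 had SCAPER (0.92), PTOV1 (0.92) and FBXO15 (0.91). DEPTOR had MCCC1 (0.88), TREML1 (0.87) and GPD2 (0.84), with its SUDHL2 means at background. Over the 22 panel lines other genes came first, and for most members the first gene changed without the Karpas-422 array. PIK3CG had SPECC1L first both ways (0.81), then SMIM19 (0.78) and TAF12 (0.77) with that array. FOXO3 had SHPRH (0.80), LRRC8D (0.79) and PXK (0.75) with it and NUCB2 (0.82) first without it. INPP5D had NRIP1 (0.72), CCNO (0.69) and VWCE (0.68), and PAIP2B (0.74) first without it. PIK3R1 had ATAD2B, TCFL5 and ZNF177 (0.71 each), and S1PR1-DT (0.79) first without it. FOXO1 had LMO4 (0.77), PAXBP1 (0.76) and LEF1 (0.76), which were 0.60, 0.67 and 0.64 without it, where CFAP299 (0.74) came first. PIK3CD had RASSF2 (0.81), HELLS (0.78) and ZNF671 (0.75), which were 0.66, 0.59 and 0.53 without it, where PAFAH1B3 (0.72) came first. AKT1 had NAA60 (0.80), IFIT1 (0.78) and PSKH1 (0.78), and SIVA1 (0.79) first without it. DEPTOR, at background in 10 of the lines, had GSTZ1 (0.78), CD38 (0.76) and SLCO3A1 (0.76), and ZDHHC4 (0.80) first without it.

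Beyond the members, 81 of 94 other genes of the pathway were measured. The values given for them are log2 fold changes of OTX015 over DMSO, and each named as risen or fallen had an adjusted p of 0.042 or lower. At 12 h 22 rose and 15 fell in SUDHL2 and 22 rose and 11 fell in SUDHL6, with medians of 0.06 and 0.10, beside 0.01 and 0.02 over all genes. The 34.1% and 26.9% of all genes called at that hour are the background of these counts. Of 7 other PI3K subunits, PIK3C3, the class III enzyme that acts in autophagy, rose in both lines (0.61 in SUDHL2 and 0.39 in SUDHL6). PIK3CB, another class I catalytic subunit, fell in SUDHL2 (-0.44), and PIK3C2A rose in SUDHL6 (0.50). Of 13 adaptors and B-cell receptor signalling genes, 3 rose and 4 fell in SUDHL2, and 0 rose and 4 fell in SUDHL6. In SUDHL2 CD79B, a chain of the receptor (1.08), and PLCG2 (0.74) rose, while CR2, a complement receptor (-1.12), and GAB2, an adaptor that binds p85 (-0.96), fell. In SUDHL6 CD79A, the other receptor chain, and VAV1 each fell by 0.63. BLNK, the receptor's linker protein, fell by 0.57 in SUDHL6 and was at least 1.46-fold lower with OTX015 in SUDHL2, where it was not above background. Of 11 other phosphatases and brakes, 0 rose and 1 fell in SUDHL2 and 1 rose and 2 fell in SUDHL6. INPP4B, which acts on the product of SHIP1, fell by 0.95 in SUDHL2. In SUDHL6 PHLPP2, which dephosphorylates AKT, rose by 0.70, and the inhibitory receptors CD22 (-1.02) and FCGR2B (-0.61) fell. CD79A, CD79B and CD22 also stand in the B-cell marker list.

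Partners of AKT moved in both directions. Of 9, 4 rose and 3 fell in SUDHL2, and 4 rose and 2 fell in SUDHL6. PDPK1, the kinase that activates AKT, rose by 0.64 in SUDHL2 and 0.80 in SUDHL6, and GSK3B, a kinase that AKT inhibits, by 0.60 and 0.72. TCL1A, a co-activator of AKT, fell in both (-1.52 in SUDHL2 and -1.08 in SUDHL6), as did TRIB3, a pseudokinase that binds AKT (-1.65 and -1.22). SGK1, a kinase related to AKT, fell by 2.62 in SUDHL2. Of 18 MTOR genes, 7 rose and 2 fell in SUDHL2, and 4 rose and 2 fell in SUDHL6. TBC1D7, a subunit of the TSC complex that restrains MTOR, rose by 0.95 and 0.92. TSC2 rose by 1.0 in SUDHL2 and TSC1 by 0.75 in SUDHL6. MLST8, a subunit of both MTOR complexes, fell in both (-0.39 and -0.87). DDIT4, a stress-induced inhibitor of MTOR, rose by 1.72 in SUDHL2 and fell by 0.52 in SUDHL6.

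Of 23 other FOXO family members and target genes, 7 rose and 4 fell in SUDHL2 and 11 rose and 1 fell in SUDHL6 at 12 h, with medians of 0.15 and 0.46. The DMSO arrays at 12 h had themselves shifted against untreated cells. In that comparison the list had 3 higher and 8 lower in SUDHL2 and 0 higher and 7 lower in SUDHL6. The medians there were -0.02 and -0.31, and 22.9% and 16.8% of all genes were called. TXNIP, which binds thioredoxin, rose by 2.17 in SUDHL2 and 1.20 in SUDHL6. In SUDHL2 GADD45A, a stress and DNA damage gene, rose by 1.42 and CCNG2, a cyclin linked to cell cycle arrest, by 1.40. KLHL24 rose by 1.28 in SUDHL6 and CXCR4, a chemokine receptor, by 1.24. Against these, BCL6, the repressor of the germinal centre (-1.56), and BCL2L11, which promotes apoptosis (-1.42), fell in SUDHL2. At 2 h the list had 2 higher and 2 lower in SUDHL2, beside 3.29% of all genes called, and 2 higher and 4 lower in SUDHL6, beside 6%. In SUDHL2, where FOXO1 did not pass at that hour (0.13), BCL6 (-1.42) and CDKN1B (-0.57) fell, and GADD45B (1.31) and GADD45A (0.52) rose. In SUDHL6, where FOXO1 fell, SESN1, a sestrin (-1.22), CXCR4 (-1.16) and BCL6 (-1.0) fell, while GADD45A rose by 1.26 and CITED2 by 1.10. A link of these genes to the FOXO1 level was not tested. SESN1 had already fallen at 1 h in SUDHL6 (-1.57). CXCR4 also fell by 1.20 there at 1 h, where another of its probes pointed the other way. Outside this list 1 further gene passed at 2 h, PIK3IP1, a membrane inhibitor of PI3K, which fell by 0.92 in SUDHL6 (adjusted p = 0.012).

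**Figure D5:**
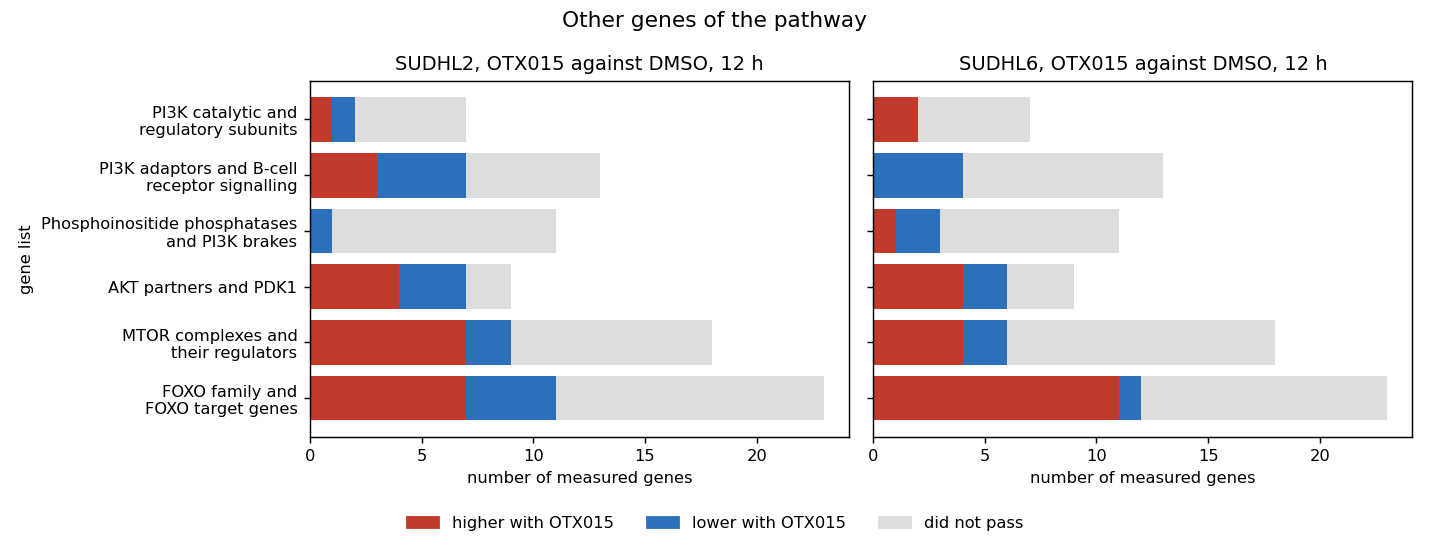
Number of genes in 6 lists of other pathway genes that were higher, lower or did not pass (adjusted p under 0.05) with OTX015 against DMSO at 12 h, in SUDHL2 and SUDHL6. The FOXO family and target list had 7 higher and 4 lower in SUDHL2 and 11 higher and 1 lower in SUDHL6.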

How the data were processed

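Total RNA of cell lines (RNeasy, then biotin-labelled cRNA, per the labels' protocols) was read on Illumina expression arrays. The authors deposited a table of probe signals (intensity, not normalized) and a table of processed log2 values, made by steps not given in the sources used here. Here the deposited intensity values were background-corrected by normexp (offset 16) and quantile-normalized over 64 arrays on the log2 scale, in R 4.3.3 with limma 3.58.1. Detection p-values were not used here, so a probe counted as above background at a p of 0.01 against the mirrored low end of its array, and was kept if so on 3 of 42 time-course arrays. Of 47231 probes, 30113 had 1 gene symbol, 8 several and 17110 none. The brightest kept probe stood for its gene.

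One limma fit with a mean for each of 14 groups gave 18 contrasts over 13393 genes, each adjusted by Benjamini-Hochberg at 0.05. The fit was tried on simulated data for SUDHL2 with OTX015 against DMSO at 12 h alone, with independent errors. Deviations shared by an experiment or a slide were not simulated. A gene not above background in a whole group has only a bound there, "at least N-fold", taken between the brighter group's mean and the lowest signals above background of the dimmer group's arrays. A difference between lines or hours is the difference of 2 OTX015 responses. Intervals are 95% confidence intervals. No arrays were identical. Experiment numbers were read as pairing SUDHL6 arrays with OTX015 and DMSO, but not the other groups. Same-numbered deviations of those SUDHL6 arrays correlated at 0.12 to 0.44 at every hour. The main fit did not use this pairing, so its SUDHL6 p-values are unpaired. A fit with the experiment number as a block was an alternative. Slides were read from the shared first part of the array codes, since no label names a slide. The number of arrays limits the precision.

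All 9 members are named; of each other pathway list, up to 3 genes per direction with the largest change among those that passed; and the 3 genes most alike for each member except AKT2, which lay at background on most arrays. Members and lists were chosen with earlier results of these data known. The alternatives were other offsets, normalizations, filters, probe rules, slide or experiment blocks, lines fitted alone, and replicates left out; leaving out SUDHL6 experiment 3 or the Karpas-422 array was chosen after seeing the data. Marker lists were held for B cells, for T or NK cells, for myeloid cells and for stromal or epithelial cells. In SUDHL2 at 12 h the stromal and epithelial sum was 217 to 234 with OTX015 against 344 to 375 with DMSO, and the T-cell and NK-cell sums were 214 to 267 over all SUDHL2 and 195 to 228 over all SUDHL6 arrays.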

Additional observations from a re-analysis of the deposited data

Results flagged for a closer look

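Differences between responses, tested as interactions, passed for 4 members. Of all genes, 0.672% passed between the lines at 2 h and 12.3% at 12 h. Between 12 and 2 h, 20.6% passed in SUDHL2 and 12.9% in SUDHL6. The FOXO1 response at 2 h differed between SUDHL2 and SUDHL6 by 0.79 (limma, adjusted p = 0.021), with responses of 0.13 and -0.66. The INPP5D response at 12 h differed between the lines by 0.92 (adjusted p = 0.003), with 0.44 in SUDHL2 and -0.48 in SUDHL6. Between 12 and 2 h of OTX015, the response of PIK3R1 in SUDHL2 differed by 0.54 (adjusted p = 0.0053) and that of FOXO3 in SUDHL2 by 0.61 (adjusted p = 0.021). That of FOXO1 in SUDHL6 differed by 1.46 (adjusted p = 1.9e-07). As given above, the FOXO1 difference between lines and the FOXO3 difference were lost when certain single arrays were left out. With the mean of the probes neither SUDHL2 difference between 12 and 2 h passed.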

How the results depend on the processing

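Over the settings other than leaving out a replicate, 1766 values kept their direction and side of the threshold, 23 gained a call, 37 lost one and 1 reversed; values where neither setting passed count as kept. FOXO1 in both lines at 12 h, PIK3R1 in SUDHL6 at 12 h, and PIK3R1 and FOXO1 in SUDHL6 at 2 h passed in each of these settings fitted over all genes and without each replicate. FOXO1 has 1 probe, so the mean of the probes could not change its value. The reversed value was PIK3R1 in SUDHL2 with DMSO against not treated at 12 h, 0 with the mean of the probes. Single dimmer probes of PIK3R1 also turned sign in SUDHL2: -0.45 for OTX015 at 12 h, 0.30 for DMSO at 12 h and -0.50 for 12 h minus 2 h. So did the second probes of INPP5D (-0.02) and FOXO3 (-0.08) in SUDHL2 at 12 h. The PIK3R1 probe at -0.45 was not above background on its OTX015 arrays, which limits that value. The experiment block (replicate block, paired) changed the calls given in the report and raised the called members of SUDHL6 with DMSO to 2 at 2 h and 3 at 12 h. That block lies within a line and gives no valid value for the difference between the untreated lines. The counts above include its fits there. The count of called members with OTX015 at 12 h in SUDHL2 was 5, 3 with 75th percentile scaling, 2 with the mean of the probes and 3 to 4 without a replicate; in SUDHL6 it was 2 to 5 without a replicate. With DMSO in SUDHL2 it became 1 at 1 h with the line alone, 1 at 2 h with 8 settings (1 to 2 without a replicate) and 0 at 12 h with 7 (0 to 1). With DMSO in SUDHL6 it became 0 at 2 h (75th percentile, no filter, line alone; 0 to 1 without a replicate) or 2 without experiment 3, and at 12 h 1 with 6 settings, 2 with the stricter filter and 0 to 3 without a replicate. The line difference at 2 h went to 0 with 75th percentile scaling or without experiment 3 (0 to 1 without a replicate). SUDHL2 at 12 h minus 2 h had 1 with 75th percentile scaling, 0 with the mean of the probes and 1 to 4 without a replicate. Counts over all genes also moved: SUDHL2 OTX015 at 1 h had 25, and 47 with the replicate block or the line alone (15 to 22 without a replicate), and at 2 h 440, and 289 to 347 without a replicate. SUDHL6 OTX015 at 1 h had 110, and 59 with the line alone (64 to 90 without a replicate). Those of DMSO, without a replicate, were 449 to 659 and 1239 to 1765 in SUDHL2 at 1 and 2 h (820 and 1860 with all) and 152 to 219 in SUDHL6 at 1 h (239 with all). The line difference at 1 h had 5, and 8, 11, 12, 9, 17 and 14 with offset 50, no background correction, processed values, mean of the probes, replicate block and without experiment 3 (3 to 6 without a replicate); at 2 h it had 90, and 142 with processed values and 149 with the block. The stricter filter gave no value for AKT2. The cause was not tested. AKT2 and DEPTOR in SUDHL2 lie at background, which limits what can be read there.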

Other observations

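In the deposited processed table the array labelled Karpas-422 had log2 values of 10.25 for DEPTOR, 8.84 for FOXO1, 7.36 for PIK3CD, 8.38 for PIK3R1 and 9.35 for AKT1. In the signal table its normalized log2 levels were 4.95, 5.22, 5.02, 7.08 and 10.33 for the same genes. The B-cell marker sum was 12674 in the processed table and 368 in the signal table. The 2 tables are on different scales, so each value is read against its own table. In the processed table the other panel lines ran from 6.56 to 10.57 for DEPTOR, 7.25 to 9.96 for FOXO1 and 7.48 to 9.21 for PIK3CD. The array stood among them for DEPTOR and FOXO1, but below all of them for PIK3CD, as in the signal table. The place of that line for DEPTOR and FOXO1 therefore depends on which table is read.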
